A study of Mus musculus with 9 samples.

Results

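The 10 genes described here encode the 5 subunits of the transcription factor NF-kB and 5 proteins grouped here as its feedback inhibitors. They were taken by symbol from the 17565 genes of the deposited iGenomes gene table. All 10 were found, and all 10 had at least 0.5 CPM in at least 3 libraries, as had 12350 genes in all. The canonical subunits are Nfkb1, Rela and Rel, and the non-canonical subunits are Nfkb2 and Relb. The group called inhibitors holds Nfkbia, Nfkbie, Nfkbiz, Bcl3 and Tnfaip3. Of these, Nfkbiz and Bcl3 encode atypical nuclear IkB proteins and are inhibitors here by grouping only.

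NF-kB works as pairs of subunits. In resting cells IkB proteins hold these pairs in the cytoplasm, until the IKK kinase complex marks the IkB protein for destruction and the canonical pair of p50 (made from Nfkb1) and RelA enters the nucleus. In the slower non-canonical route the kinase NIK leads to processing of the Nfkb2 product p100 into p52, which pairs with RelB. Several of the genes that NF-kB switches on encode its own subunits and inhibitors, among them IkB alpha and A20. In endothelial cells the pathway is known for inducing adhesion molecules and chemokines during inflammation. RNA levels do not show which pairs are in the nucleus.

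Poly-A RNA was sequenced from MS1 cells, an immortalised endothelial line from the mouse pancreas, in 3 groups of 3 samples. TAZ-CAMTA1 cells stably expressed, from the lentiviral vector pCDH-TAZ-CAMTA1, the fusion protein known from epithelioid haemangioendothelioma, a vascular sarcoma. TAZ4A cells carried pCDH-TAZS4A, a mutant form of TAZ, the transcriptional co-activator restrained by the Hippo pathway. Control cells carried the vector pCDH-puro without either insert. All groups are a single line under a lentiviral vector, and the labels name neither clones nor separate cultures. The p-values below therefore measure the spread between these samples, which may be technical.

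Each library held 21966004 to 34224715 reads assigned to genes. Levels are the deposited CPM, reads scaled by library, given as mean ± SD over n = 3 samples unless said otherwise. Differences between groups are log2 fold changes of CPM + 0.5 ± their standard error, which understate changes of low genes, and adjusted p-values are from limma with Benjamini-Hochberg adjustment over all 12350 genes tested, with a threshold of 0.05. Endothelial markers together were abundant in every group, with a summed level of 11444 to 13067 CPM in TAZ-CAMTA1, 7871 to 8145 CPM in TAZ4A and 11979 to 12240 CPM in control. However, Cldn5 was at or near 0 throughout and Vwf was low, at 1.81 to 7.80 CPM. The 9 leukocyte markers in the table summed to 463 to 715 CPM in TAZ-CAMTA1, 397 to 405 CPM in TAZ4A and 453 to 525 CPM in control, nearly all of it Cd68, a lysosomal protein gene, at 394 to 704 CPM in every library. Ptprc, Itgam, Csf1r and Spi1 were at most 0.234 CPM in any library, and Lyz2 reached 8.87 CPM in TAZ-CAMTA1. The 10 fibroblast and mural markers summed to 10.9 to 17.0 CPM in TAZ-CAMTA1, 16.7 to 18.1 CPM in TAZ4A and 5.47 to 6.83 CPM in control. The pancreatic epithelial markers in the table summed to at most 2.32, 10.3 and 0.658 CPM, nearly all of it Krt19. The part of other cell types in the results was not tested, and in bulk RNA fewer cells of a type and less RNA per cell cannot be told apart. Camta1 stood at 13.1 ± 0.58 CPM in TAZ-CAMTA1, 4.91 ± 0.25 CPM in TAZ4A and 4.05 ± 0.92 CPM in control. Wwtr1, which encodes TAZ, stood at 437 ± 94.4, 325 ± 8.70 and 551 ± 17.6 CPM in the same order, so that the mouse gene was lower in the libraries labelled TAZ4A. The groups are called by their labels.

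One library, TAZ-CAMTA1 replicate 2, was unlike the remaining 8 and bears on every comparison below. Its log2 correlation across genes with the other TAZ-CAMTA1 samples was 0.962 to 0.963, and every other replicate pair reached at least 0.997. Relative to TAZ-CAMTA1 replicates 1 and 3 it was higher for genes with short annotated exons (median log2 difference 0.40 in the shortest of 3 length classes) and lower for those with long exons (-0.48 in the longest class). Bcl3, Nfkbie and Rela, with 2475 to 3072 exon bases, followed this at 0.40 to 0.52 higher on the log2 scale. So did Tnfaip3, Nfkb1 and Rel, with 7226 to 12061 bases, at differences of -0.55, -0.51 and -2.20. The middle class (3342 to 5891 bases) had a median of -0.04, but its members Relb, Nfkb2 and Nfkbiz differed by 0.75, 0.22 and -0.44. Nfkbia, the shortest with 1610 bases, differed by 0.03. For 5 members (Nfkb1, Rela, Nfkb2, Nfkbie and Nfkbiz), reads across the 5′ introns made up a smaller part of the junction reads in this library than in any other. The share was 27.5% for Nfkb1 against 42.7% to 49.2% in the other 8 libraries, 42.2% for Nfkb2 against 61.9% to 67.8%, and 20.0% for Nfkbie, just under 21.1% to 39.6%. For Rel, Relb, Nfkbia, Bcl3 and Tnfaip3 it lay inside the range of the other 8 libraries, on as few as 6 reads for Rel and 9 for Tnfaip3. Results of members are given with and without this library, and its part in them was not tested.

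**Figure D1:**
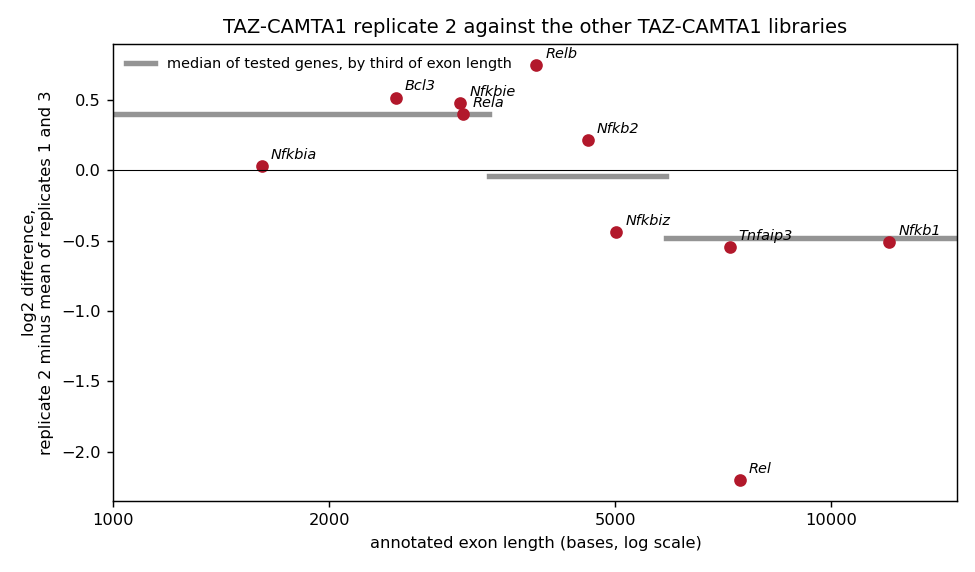
Log2 difference between TAZ-CAMTA1 replicate 2 and the mean of TAZ-CAMTA1 replicates 1 and 3 (vertical axis) against annotated exon length in bases (horizontal axis, log scale). Points are the 10 NF-kB genes and grey bars are the medians of tested genes in 3 classes of exon length (0.40, -0.04 and -0.48). Relb lies highest at 0.75 and Rel lowest at -2.20.

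The promoters of the members are shown because several are textbook NF-kB targets that carry kappaB sites. RefSeq promoters (build GRCm38.p6) were at hand for 7 of the 10 members, in 10 windows of 250 bases before an annotated start. The 10-base NF-kB consensus, searched on both strands, matched in 5 of these members (Rel, Nfkb2, Nfkbia, Nfkbie and Tnfaip3) and in 7 of the 10 windows. In all 32851 promoter windows of the table the share was 3.9%. The AP-1 motif TGANTCA matched in 3 of the 10 windows (1 each of Nfkb2, Nfkbie and Tnfaip3), against 6.75% of all windows. The TEAD motif GGAATG matched in 1 of the 10 windows (of Nfkb2), where it overlaps a kappaB match, against 12.6%. Rela and Bcl3 had no match to any of them. A match describes the letters only. The whole windows of Nfkbia, Nfkbie and Tnfaip3 are printed because these inhibitors changed in all 3 comparisons, and 30-base stretches of Nfkb2 and Rel for comparison of the subunits. Capitals mark the kappaB matches, and each runs 5′ to 3′ on the strand of the gene.
Nfkbia, chr12:55492648-55492897, minus strand: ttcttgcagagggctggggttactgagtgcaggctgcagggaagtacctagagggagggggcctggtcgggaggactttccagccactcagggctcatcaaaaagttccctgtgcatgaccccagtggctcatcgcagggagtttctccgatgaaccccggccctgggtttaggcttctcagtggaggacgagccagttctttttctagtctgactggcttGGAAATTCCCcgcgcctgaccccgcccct
Nfkbie, chr17:45555450-45555699, plus strand: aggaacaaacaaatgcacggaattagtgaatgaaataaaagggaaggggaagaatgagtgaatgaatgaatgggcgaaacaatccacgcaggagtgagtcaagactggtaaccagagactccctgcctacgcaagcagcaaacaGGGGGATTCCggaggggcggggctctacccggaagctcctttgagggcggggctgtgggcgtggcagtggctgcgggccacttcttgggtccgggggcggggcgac
Tnfaip3, chr10:19015411-19015660, minus strand: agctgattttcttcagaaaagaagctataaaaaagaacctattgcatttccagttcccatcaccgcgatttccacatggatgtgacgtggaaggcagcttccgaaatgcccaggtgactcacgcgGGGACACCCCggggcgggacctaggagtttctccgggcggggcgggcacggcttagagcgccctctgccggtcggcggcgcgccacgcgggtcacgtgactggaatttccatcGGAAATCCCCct
Nfkb2, chr19:46304689-46304718, plus strand: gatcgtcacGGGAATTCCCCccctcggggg
Rel, chr11:23771041-23771070, minus strand: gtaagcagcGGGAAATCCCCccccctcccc

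The match in Nfkbia lies 29 to 20 bases before the annotated start, that in Nfkbie 106 to 97 bases, and the matches in Tnfaip3 125 to 116 and 12 to 3 bases. The AP-1 letters of Nfkbie (156 to 150 bases) and Tnfaip3 (136 to 130 bases) lie upstream of the kappaB match, or of the farther one. The stretch shown for Nfkb2 reads the same on both strands across its first 10 capitals.

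Across the members, the genes grouped as inhibitors were those that rose with either construct, and the non-canonical subunits rose with TAZ-CAMTA1. Among the canonical subunits Rela alone passed with all 9 libraries, in the comparisons of TAZ-CAMTA1. In TAZ-CAMTA1 against control 8 of 10 members rose and 0 fell, where 32.1% of all tested genes were called (16.8% higher and 15.3% lower). In TAZ4A against control 5 of 10 rose and 0 fell, against 24.9% of all genes called (13.2% higher and 11.7% lower). All 5 were of the group called inhibitors. In TAZ-CAMTA1 against TAZ4A 5 rose and 1 fell, against 37.9% of all genes called (19.4% higher and 18.5% lower). The median log2 fold change over the 10 members was 0.78, 0.41 and 0.29 in these comparisons, and over all tested genes it was -0.03, -0.01 and -0.02. The comparisons against control share their 3 control samples.

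Without TAZ-CAMTA1 replicate 2 the spread shared by all groups was smaller, and more genes passed. Then 9 members rose and 0 fell in TAZ-CAMTA1 against control, where 60.9% of all genes were called (28.5% higher and 32.3% lower). Rel was the added member. In TAZ4A against control 8 rose, with Rel, Nfkb2 and Relb added, and Rela fell, where 58.3% of all genes were called (28.1% higher and 30.3% lower). In TAZ-CAMTA1 against TAZ4A 6 rose and 1 fell, where 63% were called (30.8% higher and 32.2% lower). The log2 fold changes of TAZ4A against control do not depend on that library, only their errors do.

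**Figure D2:**
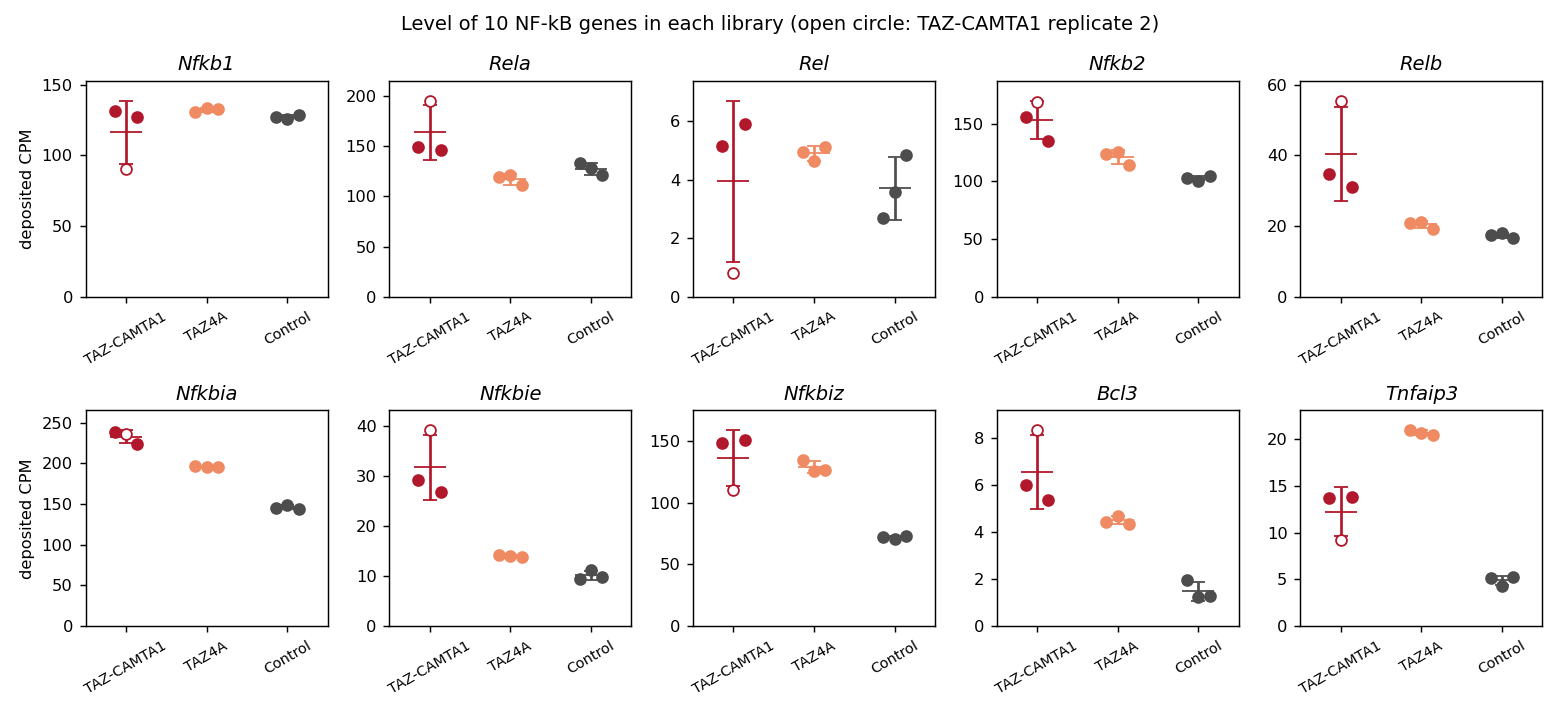
Deposited CPM of the 10 genes in each library (vertical axes, starting at 0), by group, with the mean as a dash and the SD as error bars (n = 3). The open circle is TAZ-CAMTA1 replicate 2. The 5 inhibitors in the lower row lie above control in all libraries of both other groups, and Tnfaip3 alone among them is highest in TAZ4A.

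Among the canonical subunits, Nfkb1 (mm10 chromosome 3, 135584655 to 135691547) encodes p105, the precursor of p50. It stood at 131, 90.6 and 127 CPM in TAZ-CAMTA1 replicates 1 to 3, at 131, 133 and 133 CPM in TAZ4A and at 127, 126 and 129 CPM in control. TAZ-CAMTA1 replicate 2 was the lowest library, and the other 8 lay between 126 and 133 CPM. It passed in no comparison (log2 fold change -0.15 ± 0.13, adjusted p = 0.420 for TAZ-CAMTA1 and 0.06 ± 0.13, adjusted p = 0.814 for TAZ4A, each against control). The 95% interval of the difference between TAZ-CAMTA1 and control ran from -0.45 to 0.15, and without replicate 2 the difference was 0.02.

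Rela (chromosome 19, 5637490 to 5648130) encodes the transactivating partner in the canonical pair. Its level was 149, 195 and 146 CPM in TAZ-CAMTA1, 119, 121 and 111 CPM in TAZ4A, and 133, 128 and 121 CPM in control. Every TAZ-CAMTA1 library lay above every other library, while the highest TAZ4A and lowest control values were nearly equal, and in TPM those groups overlapped. Against TAZ4A, Rela rose in TAZ-CAMTA1 by a log2 fold change of 0.47 ± 0.12 (adjusted p = 0.0128) and just passed against control (0.35 ± 0.12, adjusted p = 0.0491). The call against control was lost with the GENCODE table (adjusted p = 0.0504), with no filter (0.0649), with only the 6 samples compared (0.130) and without any one TAZ4A or control library (0.0747 to 0.155). Without TAZ-CAMTA1 replicate 2 both fold changes were smaller but passed (0.34, adjusted p = 5.74e-05, and 0.21, adjusted p = 0.00301). The call against TAZ4A was lost without TAZ4A replicate 3 (adjusted p = 0.0555). In TAZ4A against control Rela did not pass (-0.12 ± 0.12, adjusted p = 0.520), and without TAZ-CAMTA1 replicate 2 it passed as lower in TAZ4A (adjusted p = 0.0414).

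Rel (chromosome 11, 23741729 to 23770970) encodes c-Rel, which is best known from lymphocytes, and was the lowest subunit. It had 5.16, 0.806 and 5.89 CPM in TAZ-CAMTA1, 4.95, 4.62 and 5.13 CPM in TAZ4A, and 2.69, 3.59 and 4.83 CPM in control. The TAZ-CAMTA1 values span all others, because replicate 2 is the lowest of the 9 libraries. It passed in no comparison, and the error was wide (log2 fold change -0.19 ± 0.54 for TAZ-CAMTA1 against control, adjusted p = 0.813, and 0.39 ± 0.54 for TAZ4A, adjusted p = 0.675). Without that library Rel was higher in TAZ-CAMTA1 than in control (0.55, adjusted p = 0.0072) and higher in TAZ4A than in control (0.39, adjusted p = 0.0265). With all libraries the first was also above 0 by edgeR (0.083, adjusted p = 0.923) and DESeq2 (0.10, adjusted p = 0.907), and without control replicate 3 it was near 0 (0.000149). Rel in TAZ4A against control also passed with only the 6 samples compared (adjusted p = 0.0275) and with library quality weights (0.020).

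The non-canonical subunits were higher in TAZ-CAMTA1 than in either other group. Nfkb2 (chromosome 19, 46304737 to 46312090) encodes p100, at once an inhibitor of RelB and the precursor of p52. It stood at 156, 169 and 135 CPM in TAZ-CAMTA1, 124, 125 and 114 CPM in TAZ4A, and 103, 101 and 105 CPM in control. The 3 groups did not overlap, with TAZ4A between the others. Nfkb2 rose in TAZ-CAMTA1 against control (log2 fold change 0.57 ± 0.09, adjusted p = 0.00203; 0.49 without replicate 2). Its rise against TAZ4A (0.33 ± 0.09, adjusted p = 0.0214) was lost with TPM (adjusted p = 0.0626), with only the 6 samples compared (0.0740) and without TAZ-CAMTA1 replicate 1 (0.0504) or any one TAZ4A library (0.0508 to 0.0880), and was 0.26 without replicate 2 (adjusted p = 0.00168). In TAZ4A against control it did not pass (0.23 ± 0.09, adjusted p = 0.103). It did so with TPM (adjusted p = 0.0331), values rescaled to equal sums (0.0462), DESeq2 (0.0412), library quality weights (0.000429), only the 6 samples compared (0.000656) and without TAZ-CAMTA1 replicate 2 (0.00172). Annotated exons of Nfkb2 share 11.6% of their bases with AC114539.1 and 6.52% with Psd on the opposite strand. Whether the authors' counting used strand is not given in the sources used here, so reads of these genes cannot be told apart.

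Relb (chromosome 7, 19606222 to 19629438) encodes the partner of p52. It had 34.6, 55.5 and 31.0 CPM in TAZ-CAMTA1, 20.9, 21.2 and 19.2 CPM in TAZ4A, and 17.4, 18.1 and 16.7 CPM in control. The lowest TAZ-CAMTA1 library lay well above the highest of the other groups, and TAZ4A lay slightly above control without overlap. Relb rose in TAZ-CAMTA1 against control (log2 fold change 1.14 ± 0.19, adjusted p = 0.00239) and against TAZ4A (0.92 ± 0.19, adjusted p = 0.00588). Replicate 2 was the highest library, and without it the fold changes were 0.89 and 0.67 (adjusted p = 3.75e-08 and 8.11e-07). TAZ4A against control did not pass (0.23 ± 0.19, adjusted p = 0.464), but did so without TAZ-CAMTA1 replicate 2 (adjusted p = 0.00714).

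The deposited TPM, which are scaled for transcript length, allow the levels of different genes to be compared. Of the summed TPM of the 5 subunits, the non-canonical subunits held 41.5%, 44.8% and 38.8% in TAZ-CAMTA1, 37.9%, 37.7% and 36.6% in TAZ4A, and 32.6%, 33.0% and 33.6% in control. The groups did not overlap, and TAZ-CAMTA1 replicate 3 lay closest to TAZ4A. Relb held 11.7% ± 2.69 in TAZ-CAMTA1, 7.54% ± 0.14 in TAZ4A and 6.68% ± 0.28 in control. Nfkb1 held 18.5% ± 4.90, 26.1% ± 0.99 and 26.1% ± 0.55 in the same order, and its low share in TAZ-CAMTA1 included 12.9% in replicate 2 and 21.0% and 21.7% in replicates 1 and 3. The ratio of Nfkb2 to Nfkb1 TPM was 1.48, 2.33 and 1.33 in TAZ-CAMTA1, 1.19, 1.18 and 1.07 in TAZ4A, and 1.02, 1.00 and 1.02 in control. Relb stood at 29.9% ± 4.61 of the Rela TPM in TAZ-CAMTA1, 21.6% ± 0.15 in TAZ4A and 16.9% ± 0.72 in control. These shares are a description and were not tested.

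**Figure D3:**
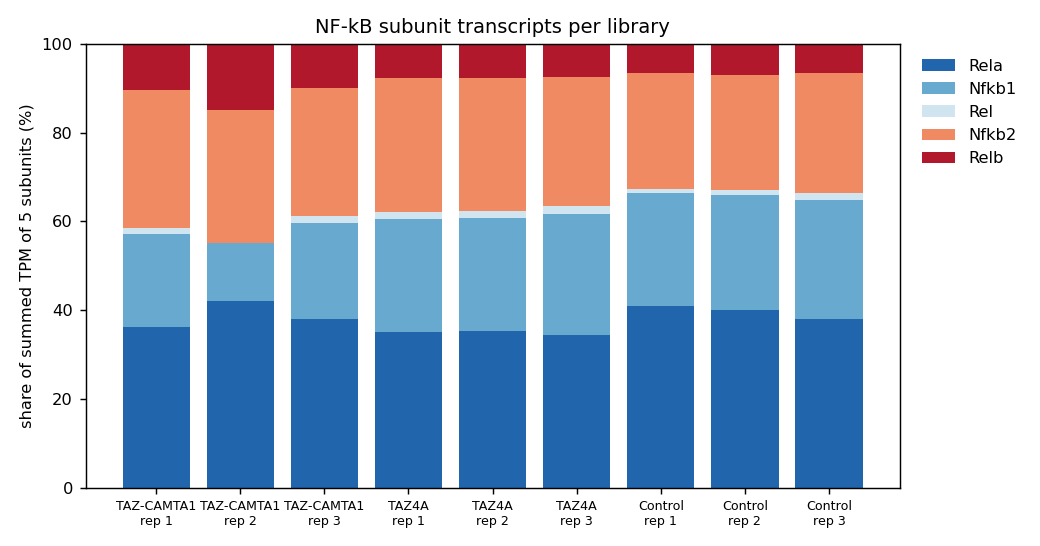
Share of the summed TPM of the 5 NF-kB subunits in each of the 9 libraries (vertical axis, percent), with canonical subunits in blue and non-canonical subunits in orange and red. The non-canonical share was 38.8% to 44.8% in TAZ-CAMTA1, 36.6% to 37.9% in TAZ4A and 32.6% to 33.6% in control.

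The classical IkB inhibitors rose in both construct groups, more in TAZ-CAMTA1. Nfkbia (chromosome 12, 55489409 to 55492647), with a kappaB match close to its start, encodes IkB alpha, which gives rapid negative feedback. It stood at 239, 236 and 224 CPM in TAZ-CAMTA1, 197, 196 and 196 CPM in TAZ4A, and 145, 149 and 144 CPM in control. In CPM the groups were cleanly separate, and replicate 2 was in the middle of its group. In TPM that library was the lowest of its group, at 302, and below every TAZ4A library (311 to 315). Against control, Nfkbia rose in TAZ-CAMTA1 by a log2 fold change of 0.67 ± 0.06 (adjusted p = 0.000106) and in TAZ4A by 0.42 ± 0.06 (adjusted p = 0.00117). Without replicate 2 the rise in TAZ-CAMTA1 was 0.66 against control and 0.24 against TAZ4A. With all libraries the rise in TAZ-CAMTA1 against TAZ4A was smaller (0.25 ± 0.06, adjusted p = 0.0141), and it was lost with TPM (0.13, adjusted p = 0.237), with only the 6 samples compared (0.0640) and without any one TAZ4A library (0.0550 to 0.0572). Its TPM was 2.48 ± 0.36 times that of Rela in TAZ-CAMTA1, 2.89 ± 0.13 times in TAZ4A and 1.97 ± 0.09 times in control.

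Nfkbie (chromosome 17, 45555716 to 45563168) encodes IkB epsilon, a slower feedback inhibitor. It had 29.1, 39.1 and 26.9 CPM in TAZ-CAMTA1, 14.2, 14.1 and 13.8 CPM in TAZ4A, and 9.33, 11.2 and 9.90 CPM in control. All TAZ-CAMTA1 libraries were far above the rest, and TAZ4A lay just above control. Nfkbie rose in TAZ-CAMTA1 by a log2 fold change of 1.58 ± 0.14 against control (adjusted p = 8.31e-05) and 1.13 ± 0.14 against TAZ4A (adjusted p = 0.000375). Without replicate 2 these were 1.42 and 0.97. The rise in TAZ4A against control (0.45 ± 0.14, adjusted p = 0.0442) was close to the threshold. It was lost with a pseudocount of 2 (0.0544), no filter (0.0545), quantile normalization (0.0970), and without TAZ-CAMTA1 replicate 1 or any one TAZ4A or control library (0.0546 to 0.150), but passed without TAZ-CAMTA1 replicate 2 (5.92e-05).

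The atypical IkB proteins act in the nucleus on chromatin-bound subunits. Nfkbiz (chromosome 16, 55811377 to 55838641) encodes IkB zeta, which in macrophages is needed for a set of secondary response genes. It stood at 148, 110 and 150 CPM in TAZ-CAMTA1, 134, 125 and 126 CPM in TAZ4A, and 72.5, 70.9 and 72.9 CPM in control. Both construct groups lay above control in the CPM of every library, and they overlapped each other. Nfkbiz rose by a log2 fold change of 0.90 ± 0.12 in TAZ-CAMTA1 (adjusted p = 0.000727) and 0.83 ± 0.12 in TAZ4A (adjusted p = 0.00107), each against control, and by 1.04 in TAZ-CAMTA1 without replicate 2. Between the constructs it did not pass (0.07 ± 0.12, 95% interval -0.20 to 0.34, adjusted p = 0.677), but without TAZ-CAMTA1 replicate 2 it was higher in TAZ-CAMTA1 (0.21, adjusted p = 0.00138).

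Bcl3 (chromosome 7, 19808462 to 19822755) encodes a nuclear partner of p50 and p52. Its level was low, at 5.99, 8.33 and 5.36 CPM in TAZ-CAMTA1, 4.43, 4.68 and 4.36 CPM in TAZ4A, and 1.95, 1.23 and 1.28 CPM in control. The groups did not overlap. Bcl3 rose by a log2 fold change of 1.83 ± 0.18 in TAZ-CAMTA1 (adjusted p = 0.000176) and 1.35 ± 0.18 in TAZ4A (adjusted p = 0.000809), each against control. Without replicate 2 the fold change in TAZ-CAMTA1 against control was 1.65. It was 1.29 with a pseudocount of 2, below the 1.46 of Nfkbie, and 1.57 for both genes with quantile normalization, so the order of these members depends on the setting. Between the constructs it did not pass (0.48 ± 0.18, adjusted p = 0.0694; 0.31 without replicate 2, adjusted p = 0.0699), but did with a pseudocount of 2 (0.0478), DESeq2 (0.0322), library quality weights (0.0183) or without TAZ-CAMTA1 replicate 3 (0.0418). Exons of Bcl3 share 6.51% of their bases with Gm16175 on the opposite strand, whose reads cannot be told apart from its own.

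Tnfaip3 (chromosome 10, 19000910 to 19015410) encodes A20, a ubiquitin-editing enzyme that shuts off signalling upstream of IKK. It had 13.7, 9.27 and 13.8 CPM in TAZ-CAMTA1, 21.0, 20.7 and 20.4 CPM in TAZ4A, and 5.11, 4.30 and 5.26 CPM in control. Here TAZ4A was highest in every library, TAZ-CAMTA1 lay between, and no groups overlapped. Tnfaip3 rose against control by a log2 fold change of 1.98 ± 0.15 in TAZ4A (adjusted p = 3.17e-05) and 1.23 ± 0.15 in TAZ-CAMTA1 (adjusted p = 0.000542). It was the 1 member that fell in TAZ-CAMTA1 against TAZ4A (-0.75 ± 0.15, adjusted p = 0.00534). Without replicate 2, the lowest TAZ-CAMTA1 library, the fall was still called (-0.57, adjusted p = 3.27e-05), and the rise against control was 1.41.

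**Figure D4:**
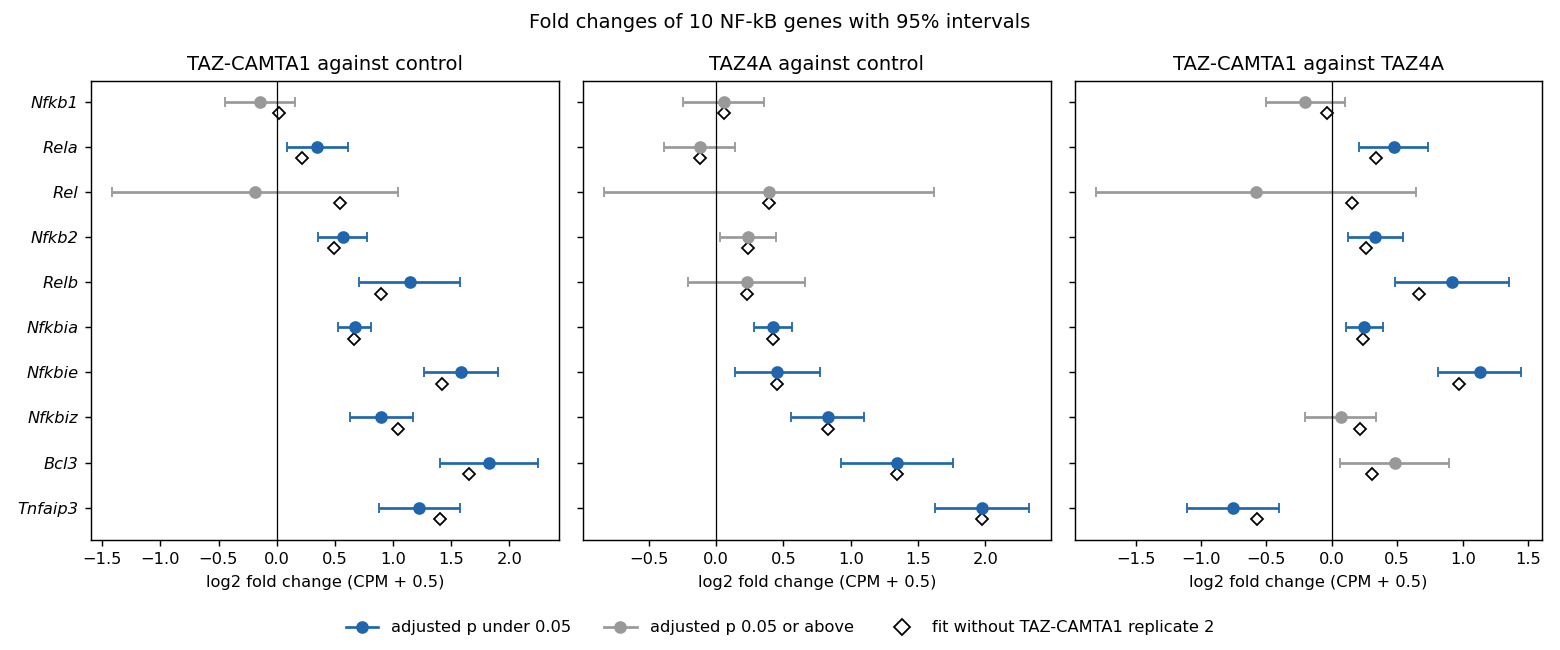
Log2 fold changes (horizontal axes, log2 of CPM + 0.5) of the 10 genes in the 3 comparisons, with 95% intervals from limma. Blue points passed at an adjusted p under 0.05, grey points did not, and diamonds are the fold changes without TAZ-CAMTA1 replicate 2. Tnfaip3 is at -0.75 and Nfkbie at 1.13 in TAZ-CAMTA1 against TAZ4A.

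In CPM, counts of members whose samples did not overlap between groups were 8 of 10 in TAZ-CAMTA1 against control (47.4% of all tested genes). They were 9 of 10 in TAZ4A against control (63.2% of all genes) and 7 of 10 in TAZ-CAMTA1 against TAZ4A (55.3%). In the authors' deposited table, at an adjusted p under 0.05, 7 members were higher and 0 lower in TAZ-CAMTA1 than in control (13.4% and 8.64% of 17565 genes were). By the authors' deposited table, 4 members were higher and 0 lower in TAZ4A than in control (11.5% and 6.76% of genes). In TAZ-CAMTA1 against TAZ4A 4 were higher and 1 lower (14% and 13.4% of genes). These differ from the members called here: the authors' adjusted p was 0.0757 for Nfkb2 and 0.1825 for Nfkbia, and Bcl3 passed at 0.0440. Rela did not pass there against control in TAZ-CAMTA1 (0.0829), nor Nfkbie in TAZ4A (0.0541).

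By length-scaled level, Nfkbia was the most abundant member in each group, at 345 ± 38.3 TPM in TAZ-CAMTA1, 313 ± 1.85 TPM in TAZ4A and 225 ± 0.99 TPM in control. Rela followed at 139 ± 5.52, 109 ± 4.51 and 114 ± 4.80 TPM. Nfkb2 came next at 108 ± 8.31, 92.7 ± 4.37 and 76.1 ± 3.00 TPM. In control the Nfkb2 libraries overlapped those of Nfkb1, which stood at 67.1 ± 19.6, 80.9 ± 0.95 and 75.1 ± 2.42 TPM. Nfkbiz stood at 83.2 ± 22.4, 83.6 ± 3.16 and 45.3 ± 1.53 TPM, overlapping Nfkb1 in both construct groups and below it in control. Relb and Nfkbie were lower, at 41.8 ± 8.17 and 30.1 ± 2.43 TPM in TAZ-CAMTA1, 23.4 ± 1.12 and 14.6 ± 0.20 TPM in TAZ4A, and 19.2 ± 0.43 and 10.2 ± 0.79 TPM in control. The lowest were Bcl3, Tnfaip3 and Rel, each at most 11.5 TPM in every library. Their order differed between groups: in control Rel overlapped Tnfaip3 and Tnfaip3 overlapped Bcl3, and in TAZ4A the order Tnfaip3, Bcl3, Rel had no overlap.

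Spliced reads gave a second measure from the same libraries, uniquely mapped reads across the annotated introns of each gene given per 1000000 unique junction reads (RPM). Each library held 6410070 to 9889541 unique junction reads. Relb had 48.9 ± 10.2 RPM in TAZ-CAMTA1, 24.7 ± 0.20 RPM in TAZ4A and 19.9 ± 0.85 RPM in control, and Nfkb2 had 321 ± 49.3, 247 ± 10.9 and 199 ± 3.21 RPM. Neither gene's TAZ-CAMTA1 libraries overlapped those of another group. Nfkbia had 206 ± 4.76, 163 ± 6.92 and 122 ± 7.42 RPM and Nfkbie 11.3 ± 0.73, 5.51 ± 0.78 and 3.98 ± 1.31 RPM in the same order. For Nfkbia no groups overlapped, whereas the TAZ4A and control libraries of Nfkbie did. Tnfaip3 had 3.86 ± 2.29 RPM in TAZ-CAMTA1, 7.53 ± 1.24 RPM in TAZ4A and 1.51 ± 0.27 RPM in control. Its lowest TAZ-CAMTA1 library, at 1.21 RPM, lay below every control library, while TAZ4A stayed above both other groups. Nfkbiz likewise had 1 TAZ-CAMTA1 library, replicate 2 at 33.9 RPM, below every control library, with 72.9 ± 34.0 RPM in TAZ-CAMTA1, 75.3 ± 4.38 RPM in TAZ4A and 39.4 ± 4.67 RPM in control. For this gene the CPM and the spliced reads of that library therefore differ in their place relative to control. Bcl3 had 5.66 ± 0.70, 3.78 ± 0.84 and 1.08 ± 0.49 RPM in the same order, without overlap. Rela had 142 ± 3.37 RPM in TAZ-CAMTA1, above every other library, 118 ± 5.75 RPM in TAZ4A and 120 ± 0.95 RPM in control. Nfkb1 had 172 ± 48.1, 207 ± 4.48 and 190 ± 4.29 RPM and Rel 3.02 ± 1.94, 4.11 ± 0.39 and 2.83 ± 0.97 RPM in that order, and for both the TAZ-CAMTA1 libraries overlapped the other groups while TAZ4A lay above control.

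The genes around these members in the pathway were followed as lists, and read against the shares of all tested genes given above. Named changes are the largest called ones among genes with a mean of at least 5 CPM in the higher group. These 44 calls were made again in the same direction without TAZ-CAMTA1 replicate 2. This is a weak check, as they were picked as the largest and errors are smaller without that library. The fold changes of TAZ4A against control do not use that library at all. Genes below that level can have larger changes, as Il1rl1 had in TAZ4A against control (log2 fold change 2.27 ± 0.09). Of 19 receptors and adaptors, 4 rose and 2 fell in TAZ-CAMTA1 against control, 5 rose and 3 fell in TAZ4A against control, and 3 rose and 3 fell in TAZ-CAMTA1 against TAZ4A. Cd40, a receptor that feeds the non-canonical route, stood at 14.9 ± 2.16 CPM in TAZ-CAMTA1, 2.73 ± 0.34 CPM in TAZ4A and 3.98 ± 0.03 CPM in control, and rose against both (log2 fold change 2.25 ± 0.12 against TAZ4A, adjusted p = 3.93e-06; 1.77 ± 0.12 against control, adjusted p = 2.37e-05). Tnfrsf9, the T cell co-stimulatory receptor 4-1BB, likewise rose in TAZ-CAMTA1, with 5.52 ± 0.36 CPM against 0.969 ± 0.05 CPM in TAZ4A and 0.0667 ± 0.02 CPM in control. At these low levels Tnfrsf9 also rose in TAZ4A against control (1.375 ± 0.09, adjusted p = 1.17e-05). Tnfrsf1a, the main TNF receptor, fell in TAZ4A, with 197 ± 8.05 CPM against 278 ± 6.89 CPM in control (log2 fold change -0.50 ± 0.08, adjusted p = 0.00148), while Tnfrsf1b and Tlr2 rose there (0.52 ± 0.09 and 0.39 ± 0.07). Leaving out TAZ-CAMTA1 replicate 2, the receptor counts were 6 rose and 8 fell, 9 and 8, and 6 and 7 in the same order. The median log2 fold change of the list was -0.07, -0.03 and -0.12, or -0.11, -0.03 and -0.05 without that library.

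The kinases that free NF-kB were followed next. Of 7 genes of the IKK complex and its activating kinases, 0 rose and 1 fell in TAZ-CAMTA1 against control, 0 and 0 in TAZ4A against control, and 1 and 2 in TAZ-CAMTA1 against TAZ4A. Leaving out TAZ-CAMTA1 replicate 2, these were 2 and 2, 1 and 2, and 2 and 2. The median was -0.30, -0.09 and -0.28 with all libraries and -0.06, -0.09 and 0.03 without that one, so its sign in TAZ-CAMTA1 against TAZ4A turned. Chuk, the catalytic subunit IKK alpha, was the gene that fell against control in TAZ-CAMTA1, with 87.1 ± 21.4 CPM against 123 ± 5.97 CPM in control (log2 fold change -0.52 ± 0.17, adjusted p = 0.0428; -0.30 without replicate 2). Of 7 non-canonical regulators, 1 rose and 1 fell, 1 and 0, and 1 and 3 in the 3 comparisons, or 6 and 1, 3 and 1, and 2 and 3 without that library. Their median was 0.17, 0.11 and 0.05, or 0.23, 0.11 and 0.03 without it. Map3k14, which encodes NIK, stood at 9.62 ± 0.20 CPM in TAZ-CAMTA1 and 7.58 ± 0.91 CPM in TAZ4A (0.33 ± 0.11, adjusted p = 0.0469; 0.34 without replicate 2). Traf3, which holds NIK low, fell in the same comparison (-0.56 ± 0.19, adjusted p = 0.0471, and -0.30 without replicate 2). Neither passed in TAZ-CAMTA1 against control (Map3k14 0.33 ± 0.11, adjusted p = 0.0537, and Traf3 -0.12 ± 0.19, adjusted p = 0.663). Without replicate 2 both passed there as higher (0.34 and 0.14). Traf3 was at 0.44 ± 0.19 in TAZ4A against control (adjusted p = 0.135), and passed as higher without TAZ-CAMTA1 replicate 2. Ikbke, an IKK-related kinase, rose against control in TAZ-CAMTA1 (0.69 ± 0.08) and in TAZ4A (0.99 ± 0.08).

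Of 13 other inhibitors and deubiquitinases tested, 4 rose and 1 fell in TAZ-CAMTA1 against control, 3 and 1 in TAZ4A against control, and 4 and 1 in TAZ-CAMTA1 against TAZ4A. Without TAZ-CAMTA1 replicate 2 the counts were 4 and 5, 4 and 3, and 4 and 5. The median was 0.09, -0.04 and 0.11 with it and -0.07, -0.04 and -0.11 without it. Tnip1, a ubiquitin-binding partner of A20, stood at 162 ± 20.9 CPM in TAZ-CAMTA1, 83.3 ± 3.02 CPM in TAZ4A and 40.4 ± 2.30 CPM in control. Its rise against control was 1.99 ± 0.10 on the log2 scale in TAZ-CAMTA1 (adjusted p = 4.46e-06) and 1.04 ± 0.10 in TAZ4A (adjusted p = 0.000104). It also rose in TAZ-CAMTA1 against TAZ4A (0.95 ± 0.10, adjusted p = 0.000148), the comparison in which Tnfaip3 fell. Zc3h12a, an RNase that degrades inflammatory mRNAs, rose against control in TAZ-CAMTA1 (1.29 ± 0.08) and in TAZ4A (0.90 ± 0.08).

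Most textbook NF-kB target genes rose with either construct, and more of them fell than rose between the constructs. This list was chosen with earlier results of these data known, so its counts are a description. Of 34 tested targets that are no members, 21 rose and 2 fell in TAZ-CAMTA1 against control (median log2 fold change 0.58). Of all tested genes 16.8% were higher and 15.3% lower there. In TAZ4A against control 26 rose and 2 fell (median 1.16), where 13.2% of all genes were higher and 11.7% lower. In TAZ-CAMTA1 against TAZ4A 6 rose and 15 fell (median -0.38) where 5 members rose and 1 fell. Of all genes 19.4% were higher and 18.5% lower in that comparison. Without TAZ-CAMTA1 replicate 2 the counts were 24 and 4, 29 and 4, and 9 and 19, and the medians 0.55, 1.16 and -0.43. C3 and Lcn2 had the largest rises of the list in both comparisons against control. Traf1, a signalling adaptor, went opposite ways in the construct groups, with 66.5 ± 11.2 CPM in TAZ-CAMTA1 and 16.7 ± 0.25 CPM in TAZ4A against 26.7 ± 0.84 CPM in control. It rose in TAZ-CAMTA1 against TAZ4A by 1.95 ± 0.11 (adjusted p = 5.69e-06) and against control by 1.29 ± 0.11 (adjusted p = 7.94e-05), and its fold change in TAZ4A against control was -0.66 ± 0.11 (adjusted p = 0.00272). Ptgs2, which encodes cyclooxygenase 2, fell to 6.65 ± 2.59 CPM in TAZ-CAMTA1, against 86.7 ± 3.10 CPM in TAZ4A and 59.9 ± 3.76 CPM in control. The chemokine gene Ccl20 had 3 reads in the TAZ-CAMTA1 libraries together, all in replicate 2, and 1049 in TAZ4A (ratio 0.00327, 95% counting interval 0.000673 to 0.00958).

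Of 11 NF-kB ligand genes only 2 reached the filter, Il1a and Tnfsf12. Il1a, which encodes interleukin 1 alpha, rose against control by a log2 fold change of 0.89 ± 0.22 in TAZ-CAMTA1 (adjusted p = 0.0159) and 1.48 ± 0.22 in TAZ4A (adjusted p = 0.00138). Its level was low, with a mean below 5 CPM in every group, under the minimum used for naming other list genes. Tnfsf12, which encodes TWEAK, rose in TAZ-CAMTA1 against TAZ4A, with 34.8 ± 9.20 CPM against 22.1 ± 1.12 CPM (0.61 ± 0.16, adjusted p = 0.0165; 0.41 without replicate 2).

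The genes whose profile over the 9 libraries lay closest to a member's were found by the root mean square difference of log2 values, each centred on its own mean. For Relb these were Gpsm3, Dapk3 and Pinx1 (differences of 0.07, 0.08 and 0.09), and for Nfkbia Carhsp1, Irf1 and Casp8 (0.05, 0.05 and 0.06). For Tnfaip3 they were Cobl, Ddah1 and Arhgap28 (0.08, 0.15 and 0.16), for Nfkbiz Ggta1, Chd3 and Dpysl3 (0.07, 0.07 and 0.09), and for Rela Rabggta, Haus8 and Fastk (0.04 each). All 9 libraries enter this measure, so that closeness includes how a gene behaved in TAZ-CAMTA1 replicate 2.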

How the data were processed

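Libraries were made with a stranded kit and sequenced on an Illumina HiSeq, per the labels' protocols. Per the submitters' processing notes, bcl2fastq, FastQC, STAR, featureCounts and edgeR were used on mm10, and their versions and settings are not given in the sources used here. CPM, as the authors name them, are here a deposited signal: the reads of a gene over an adjusted library size. The design assumed CPM, but the sums differ between libraries (976997 to 1028370), and the test was kept. All values (100%) were whole multiples of 1 read within a tolerance of 0.01, so reads were recovered. The deposited TPM are scaled for length by the authors. Uniquely mapped reads per intron are deposited as counts in the junction files. The authors' deposited table gives log2 fold changes and adjusted p-values, quoted only as theirs.

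Groups and replicate numbers came from the titles. The test was limma-trend (limma 3.58.1, R 4.3.3, robust) on log2(CPM + 0.5) of all 9 libraries in a single fit. It covered genes reaching 0.5 CPM in 3 or more libraries. It was first tried on simulated reads with no library like TAZ-CAMTA1 replicate 2, so that trial does not cover such a library. Alternatives were other units, annotation, pseudocounts (0.1 and 2), filters, scalings, samples, weights, a replicate block, edgeR 4.0.16, DESeq2 1.42.0 and each library left out. Replicate numbers were not taken as pairs. The members, lists and rules were chosen with earlier results of these data known. All members are named. Of each list the counts are given and up to 2 called genes with the largest rise and 2 with the largest fall at a mean of at least 5 CPM in the higher group could be named, and Il1a was named after its values were seen. Nearest profiles are given for 1 member of a class at most. Gene coordinates are those of the deposited table, and exon lengths and introns came from GENCODE vM21, whose build GRCm38 is that of mm10.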

Additional observations from a re-analysis of the deposited data

How the results depend on the processing

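Over all members, comparisons and other settings, 598 values kept their direction and their side of the threshold. With the direction kept, 31 lost the call and 19 gained it. Another 12 turned direction, whether called or not. All that turned are Nfkb1, Rel or Nfkbiz values that were not called with all libraries. With library quality weights Nfkb1 stood at 0.024 and Rel at 0.52 in TAZ-CAMTA1 against control, and Rel at 0.11 in TAZ-CAMTA1 against TAZ4A. Without TAZ-CAMTA1 replicate 2 the same 3 values were 0.023, 0.55 and 0.16. Rel in TAZ-CAMTA1 against control thus turned and also passed in both settings (limma adjusted p = 0.0169 and 0.0072). In TAZ-CAMTA1 against control Rel was also 0.083 with edgeR, 0.10 with DESeq2 and 0.000149 without control replicate 3. Nfkbiz in TAZ-CAMTA1 against TAZ4A was -0.046 with TPM, -3.81e-05 without TAZ-CAMTA1 replicate 1 and -0.012 without replicate 3. Over the fits that left out a library, Nfkb1 ranged from -0.24 to 0.023 and Rel from -0.60 to 0.55 in TAZ-CAMTA1 against control, and Rel from -0.99 to 0.16 and Nfkbiz from -0.012 to 0.21 in TAZ-CAMTA1 against TAZ4A. The cause of these changes was not tested.

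Members called in TAZ4A against control numbered 5, but 8 with only the 6 samples compared (58.6% of all genes called), 8 with library quality weights (60.2% of all genes, against 24.9% with all libraries weighted alike), and 4 to 9 with a library left out, the 9 being without TAZ-CAMTA1 replicate 2 (58.3% of all genes). In TAZ-CAMTA1 against TAZ4A they numbered 6 (37.9% of all genes), and 3 to 7 with a library left out. The 3 came without TAZ4A replicate 3. In TAZ-CAMTA1 against control they numbered 8 (32.1% of all genes), and 7 to 9 with a library left out. With the replicate number as a block the counts were 8, 5 and 6 in TAZ-CAMTA1 against control, TAZ4A against control and TAZ-CAMTA1 against TAZ4A. The share of all genes called was not taken for the block. Among fits with a library left out, it was taken only for TAZ-CAMTA1 replicate 2. The other counts are therefore not read as particular to the members. Same-numbered samples of different groups deviated from their group means with correlations of -0.12 to 0.52. They were 0.138 to 0.523 for number 2 and 0.175 to 0.395 for number 3, all above 0, and -0.120 to 0.064 for number 1. The numbers were not taken as pairs in the main fit, and a shared effect of the replicate number was not tested. On the recovered reads edgeR called 4027, 3128 and 4760 genes in these comparisons, with 8, 5 and 6 members among them, and DESeq2 called 4664, 3669 and 5392. TPM moved the median of all genes in TAZ-CAMTA1 against TAZ4A to -0.13. Junction reads per library numbered 6 to 43 for Rel, 5 to 49 for Bcl3, 9 to 88 for Tnfaip3 and 29 to 112 for Nfkbie, which limits what they can show.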
